A study of Sus scrofa with 12 samples.

Results

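Of the 31908 genes measured in porcine oocytes during in vitro maturation, 86 peaked at 22h, the middle of 3 stages. They were chosen by their FPKM values (fragments per kilobase of transcript, relative to all fragments of the library): a mean at 22h of at least 5, at least 1.5 times the mean at 0h and at least 1.5 times the mean at 46h, with the lowest 22h library above the highest library of both other stages. Genes of the mitochondrial genome were left out. Of the 86 genes, 78 had a gene symbol and 8 were known only by an Ensembl identifier. The same rule turned to the other stages chose 850 genes that peaked at 0h and 493 that peaked at 46h, and 30 genes had the mirrored pattern with the lowest level at 22h. Because the rule used both contrasts with 22h, the height of the peak is described here and not tested, and the test is kept for 46h against 0h, which the rule treats alike but whose difference it bounds.

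The libraries came from Sus scrofa oocytes freed of their cumulus cells, with 4 replicates at each of 0h, 22h and 46h of culture, with time in culture the only difference the labels give and no genotype or strain named. The donors were prepubertal gilts, per the study's methods. The design text deposited with the series names the stages GV (germinal vesicle), Pre-MI and MII (metaphase II) and gives the middle one as 24h, whereas the sample labels give 22h, which is used here. The labels do not say whether replicates were separate batches of ovaries or cultures, so p-values measure the spread between these samples, which may be technical. Libraries were made from pooled oocytes by SMART-Seq2, a method that primes cDNA on the poly(A) tail, so a longer tail and more mRNA cannot be told apart, nor can a change in every oocyte and a change in a part of the pool.

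A fully grown oocyte makes little new RNA and lives on mRNA stored during growth. When meiosis resumes, stored messages are translated, given longer poly(A) tails or degraded in an ordered way, and many maternal messages are gone by MII. One class is marked near its 3′ end by the cytoplasmic polyadenylation element (CPE), a U-rich motif read by CPEB proteins, which works together with the poly(A) signal to lengthen the tail during maturation.

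Total FPKM per library lay between 697468 and 802184, and FPKM carries no read counts. At 0h the 13 protein genes of the mitochondrial genome took between 1.79% and 3.76% of all FPKM, compared with between 8.06% and 12.02% at 22h and between 12.8% and 16.7% at 46h, and FPKM is relative to all fragments of a library. Oocyte markers summed to between 36356 and 60514 FPKM in every library. Cumulus and granulosa cell markers summed to 19.9 to 29.04, 18.9 to 23.2 and 18.02 to 25.6 FPKM in the order of the stages, with KITLG the largest on average at each stage. Of the 22 matched, 9 were at 0 in every library. None is among the 86 genes, but only KITLG (9.20 FPKM) reached the mean at 22h that the rule asks for. Theca and stroma markers summed to 22.98 to 27.98, 14.35 to 23.3 and 2.18 to 3.26 FPKM, with TAGLN the largest at 0h and 22h and DCN at 46h, and with 3 of 11 at 0 in every library. Blood, immune and endothelial markers summed to 11.67 to 16.8, 10.46 to 28.96 and 25.3 to 27.6 FPKM, with 7 of 13 at 0, and cumulus expansion genes to 65.2 to 97.4, 77.6 to 97.3 and 116 to 147 FPKM, with VCAN the largest on average at each stage, and with 2 of 16 at 0. The part of these markers in the results was not tested. The mean correlation of a library with the others of its stage was lowest for 0h replicate 4, at 0.950, and 0.964 to 0.987 for the other 11 (Pearson, log2 of FPKM plus 1, across genes). Without 0h replicate 4 the rule chose 184 genes, 79 of the 86 among them.

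Together the 86 genes held between 0.757% and 0.91% of all FPKM in the 0h libraries, between 1.34% and 1.47% in those of 22h and between 0.354% and 0.432% in those of 46h. The 22h range lay above those of 0h and 46h, which follows from the choice of the genes. The 46h range lay below that of 0h, which the rule does not ask for. The ratio of the 22h mean to the 0h mean was 1.51 to 4.04 with a median of 1.75, and the ratio to the 46h mean was 1.54 to 47.2 with a median of 2.97. The peaks were therefore mostly lopsided: 24 genes were at least 2 times higher at 22h than at 0h, 67 were at least 2 times higher than at 46h, and 18 were so on both sides. Over all genes tested the median log2 fold change (limma, log2 of FPKM plus 1) was -0.001 at 22h against 0h. It was -0.26 at 46h against 22h, so the lean to a lower 46h level was not particular to these genes. The size of this lean depends on the scaling, as given below. The mean at 22h was 5 to 10 FPKM for 18 genes, 10 to 100 FPKM for 46 and above 100 FPKM for 22. Its median was 33.8 FPKM, against 7.24 FPKM over the 7013 genes that passed the filter for testing, and the level minimum of the rule enters that difference. All 86 genes passed this filter, a 12-library mean of 1 FPKM or more. Their median coefficient of variation within a stage was 21.2% at 0h, 14.6% at 22h and 19.4% at 46h, where all genes tested had 25.3%, 22.5% and 20.5%, and the separation of libraries that the rule asks for enters these values too. Among the 22h libraries, replicate 1 was the highest for 34 genes, replicate 3 for 27, replicate 2 for 13 and replicate 4 for 12.

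**Figure D1:**
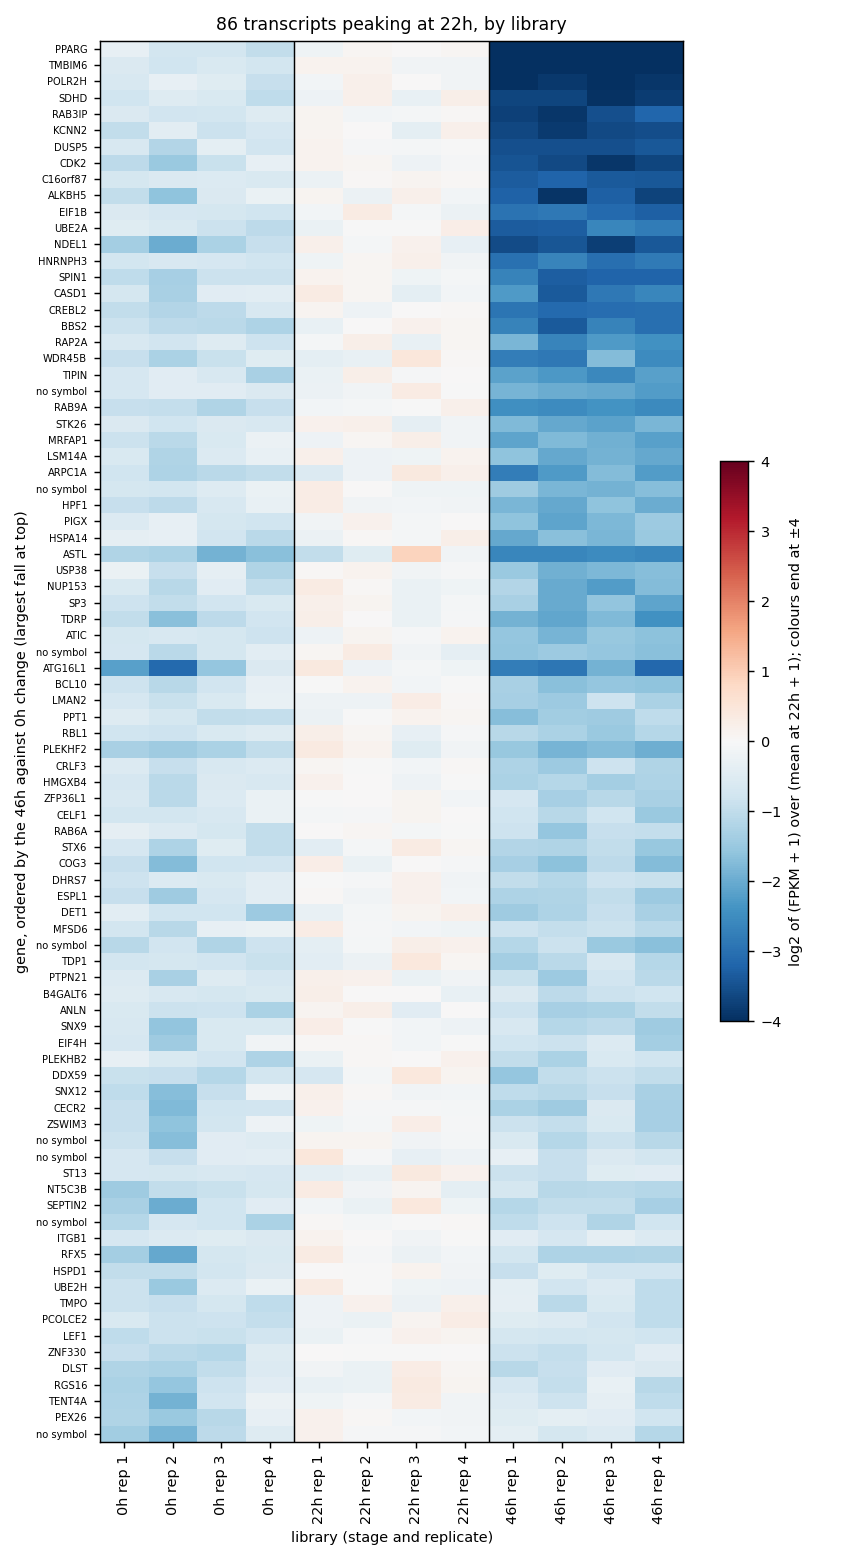
Each row is 1 of the 86 genes and each column 1 of the 12 libraries; the colour is the log2 ratio of FPKM plus 1 to the 22h mean plus 1, and the scale ends at 4 in both directions. Rows run from the largest fall at 46h against 0h on this log2 scale (PPARG, at the top) to genes whose 46h level is close to 0h. The 0h column block is mostly pale whereas the 46h block pales from top to bottom.

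At 46h against 0h, 41 of the 86 genes (47.7%) were lower and 0 were higher (limma on log2 of FPKM plus 1, adjusted p under 0.05 and fold change over 1.5), with 1 positive at an unadjusted p under 0.05. Of all 7013 genes tested, 39.1% were lower and 16.8% higher by the same criteria. At an adjusted p under 0.05 alone, 47 of the 86 differed (62.6% of all genes tested did), 6 of them by less than 1.5-fold. The median log2 fold change was -0.55 for the 86 genes and -0.25 for all genes tested, with 71 of the 86 negative and 15 positive. For 45 genes every 46h library lay below every 0h library, compared with 39.2% of all genes tested, and for 0 genes the reverse held, compared with 18.2% of all. The rule bounds these counts alike in both directions. A gene whose mean is 1.5-fold higher at 46h than at 0h needs a 22h mean at least 2.25 times its 0h mean. A gene 1.5-fold lower needs that ratio to 46h. Of the 86 genes, 7 had the first ratio and 58 the second. These observed ratios contain the difference between 46h and 0h itself, so they do not measure what the rule allowed. Nothing is read from the 0 genes higher against the share of all genes. Of the 45 genes not past the thresholds, 13 had a 95% interval that lay within a 1.5-fold change in either direction, and 32 had an interval that reached beyond it. After quantile normalization, which moved the median of all genes from -0.25 to 0.34, 31 of the 86 were lower and 17 higher, compared with 27.2% and 40.3% of all genes, and without 0h replicate 4, 40 were lower and 3 higher, compared with 38.1% and 18.4% of all. The median of the 86 genes was -0.20 after median-of-ratios scaling and -0.03 after quantile normalization. For the contrasts the rule used, limma called 81 of the 86 higher at 22h than at 0h (7.84% of all genes tested) and 83 lower at 46h than at 22h (32.6% of all), and nothing is read from these counts.

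**Figure D2:**
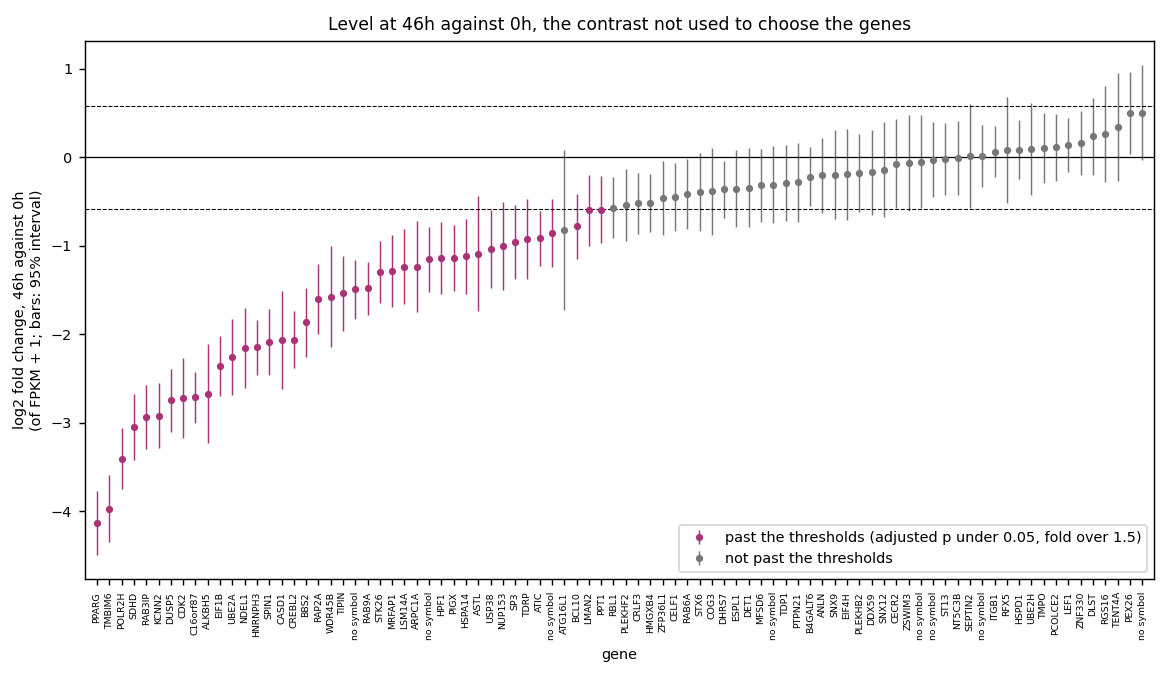
Points are the limma log2 fold change of each of the 86 genes at 46h against 0h, with 95% intervals; dashed lines mark a 1.5-fold change either way and the solid line no change. The 41 genes past the thresholds all lie below 0, from PPARG at -4.13, and the other 45 run from -0.82 to 0.51.

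Before the values of single genes, the 3′ ends are shown, because the CPE was more frequent in them than in the genes tested as a whole. RefSeq models of Sscrofa11.1 were matched by symbol for 72 of the 78 named genes and for 5694 of 6112 named genes tested. Among genes with a 3′ untranslated region of at least 150 bases, the last 150 bases of the transcript held a CPE, searched as TTTTAT or TTTTAAT on the transcript strand, in 31 of 63 genes peaking at 22h (49.2%). The share was 30.6% of all such genes tested (1493 of 4875), 17.9% of genes peaking at 0h (89 of 496), 42.4% of those peaking at 46h (151 of 356) and 39.8% of other genes that limma called higher at 22h than at 0h (135 of 339). In the last 100 bases the shares were 41.3% for genes peaking at 22h and 23.3% for all tested, and with the longest transcript of each gene 45.6% and 30.5%. The poly(A) signal, searched as AATAAA or ATTAAA, was found in 82.5% of genes peaking at 22h and 80.2% of all tested. Of the genes peaking at 22h, 11 of 28 with a fall at 46h against 0h held a CPE (39.3%) and 20 of 35 without (57.1%). Median 3′ untranslated length was 1082 bases against 815 for all genes tested, and median transcript length 2461 against 2857. These shares are descriptions with no test, a match of letters is not a working site, and whether the motif bears on the peak was not tested.

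The windows below show how both motifs lie in 7 of the genes that hold them within 30 bases of each other, with the CPE and the poly(A) signal in capitals, 5′ to 3′ on the transcript strand, from RefSeq Sscrofa11.1. In PPARG the motifs adjoin and in STX6 they overlap, so 1 run of capitals holds both.
PPARG, chr13:68433910-68433939, plus strand: caatttacTTTTAATATTAAAaattaccac
CREBL2, chr5:59804357-59804386, minus strand: attatatTTTTATgaaaAATAAAatatctt
DUSP5, chr14:120919355-120919384, plus strand: ttgttTTTTATagtgcaaAATAAAaatagt
RGS16, chr9:123913187-123913216, minus strand: tgaTTTTATtgtgaaataaaAATAAAaccc
PPT1, chr6:95840916-95840945, minus strand: taaTTTTATgaagttgtttaaAATAAAaag
ZSWIM3, chr17:48073059-48073088, plus strand: tacctatTTTTATtcatATTAAAgtttttg
STX6, chr9:122533753-122533782, minus strand: gaattgcactTTTTAATAAAtatttgtaac

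The windows of 4 genes with a poly(A) signal (capitals) and no CPE in the last 150 bases follow. Of the 6 largest falls at 46h against 0h, PPARG and KCNN2 held a CPE and POLR2H, RAB3IP and SDHD did not. SDHD had no poly(A) signal in this window either, and TMBIM6 was not counted because its 3′ untranslated region is 105 bases long.
ASTL, chr3:47071639-47071668, plus strand: gtgtcttgggagaaggcagaAATAAAattg
POLR2H, chr13:122256159-122256188, plus strand: taaaaaaaaaaaatggtaacAATAAAatta
RAB3IP, chr5:34053857-34053886, plus strand: gttgcaaaaaaagctaaataAATAAAtgtt
PLEKHF2, chr4:41512122-41512151, minus strand: tctattgactctgtttttacAATAAAaaat

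**Figure D3:**
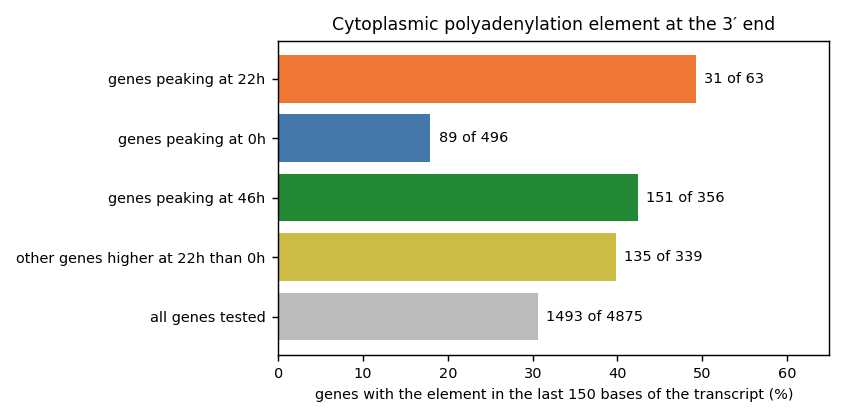
Bars are the percentage of genes, among those with a 3′ untranslated region of at least 150 bases, whose last 150 transcript bases hold a CPE; the counts stand beside each bar. Genes peaking at 22h stand highest at 49.2% and genes peaking at 0h lowest at 17.9%.

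In the promoters of the 72 matched genes (250 bases before to 50 after the start, both strands), the CCAAT box (CCAAT) was found in 34.7%, the GC box (GGGCGG) in 62.5%, the TATA box (TATAAA) in 4.17%, the E box (CACGTG) in 6.94% and the cyclic AMP response element (TGACGTCA) in 4.17%. Over all matched genes tested the shares were 37.5%, 64.5%, 7.87%, 9.87% and 3.53%. The genes lay on 18 chromosomes, with 8 on chromosome 5, 7 on chromosome 15 and 4 on X, and 1 lay on an unplaced scaffold.

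The genes are taken by role from here on, with 68 of the 86 placed in groups that were drawn up after their values had been seen. Of these 68 genes, 34 were lower at 46h than at 0h. Over all genes tested 39.1% were lower and 16.8% higher. The groups hold 2 to 13 genes, and nothing is read from the counts of a group or of a list below against these shares. Genes of the egg surface and matrix numbered 3, of which 1 fell at 46h against 0h. ASTL (chr3:47058104-47071681, plus strand) encodes ovastacin, the cortical granule protease that cleaves the zona pellucida protein ZP2 after fertilization. ASTL was at 1.92, 1.83, 0.83 and 1.14 FPKM at 0h, at 2.46, 3.83, 11.6 and 5.21 FPKM at 22h and at 0.11, 0.1, 0.18 and 0.1 FPKM at 46h. The highest level by far was in 22h replicate 3, and the 46h libraries all lay below the 0h libraries. The 22h mean was 4.04 times the 0h mean and 47.2 times the 46h mean (2.68 and 31.3 times without 22h replicate 3), and limma gave a log2 fold change at 46h against 0h of -1.09 (SE 0.30, adjusted p = 0.00618). ASTL was the one of the 86 genes on a list of 20 tested oocyte markers, of which 3 were higher and 13 lower at 46h than at 0h. No gene was on the lists of polyamine metabolism, histones, embryonic transcription factors or stress response, which hold 8, 11, 14 and 11 genes tested. With 86 genes among 7013 tested, few or none would fall on lists this short, and nothing is read from it. PCOLCE2, an enhancer of procollagen C-terminal processing, was one of the most abundant of the 86 genes, at 359, 301, 308 and 283 FPKM at 0h, at 476, 458, 599 and 669 FPKM at 22h and at 389, 380.1, 322 and 269.6 FPKM at 46h. Its 0h and 46h libraries overlapped, with a log2 fold change of 0.11 (SE 0.18, adjusted p = 0.601). ITGB1, the integrin beta 1 chain, was near the lower limit of the rule with means of 3.22, 5.26 and 3.42 FPKM in the order of the stages.

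Genes of cell division and the cytoskeleton numbered 7, of which 3 fell at 46h against 0h. CDK2 (chr5:21365723-21372170, plus strand), the cyclin-dependent kinase of the G1/S transition, was at 10.1, 7.19, 11.2 and 17.1 FPKM at 0h, at 24.3, 22.9, 18.7 and 21.1 FPKM at 22h and at 1.07, 0.87, 0.54 and 0.78 FPKM at 46h. The 22h libraries were the highest and every 46h library was below the lowest 0h library. Limma gave a log2 fold change at 46h against 0h of -2.72 (SE 0.21, adjusted p = 5.52e-08). CDK1, the kinase of M phase entry, was not among the 86 genes and was at 100.2 ± 29.3, 84.7 ± 13.5 and 0.275 ± 0.0526 FPKM in the order of the stages. NDEL1 (chr12:53553897-53640470, plus strand), a partner of LIS1 that regulates the motor dynein, was at 28.7, 18.3, 30.4 and 38.8 FPKM at 0h, at 85.6, 70.3, 84.7 and 59.2 FPKM at 22h and at 5.4, 6.06, 4.61 and 6.18 FPKM at 46h. All 3 stages were apart, with 46h the lowest, and the log2 fold change was -2.15 (SE 0.21, adjusted p = 6.23e-07). Its paralogue NDE1 was at 38.5 ± 10.9, 53.8 ± 7.01 and 12.6 ± 1.62 FPKM. ARPC1A, a subunit of the actin-nucleating Arp2/3 complex, was at 33.7, 24.4, 27.2 and 29.3 FPKM at 0h, at 40.1, 50.4, 76.8 and 67.4 FPKM at 22h and at 7.69, 11.3, 16.99 and 11.8 FPKM at 46h. Here too the 46h libraries were all below the 0h libraries, with a log2 fold change of -1.23 (SE 0.24, adjusted p = 0.000401).

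The other 4 of these genes did not pass the test at 46h against 0h. ESPL1, separase, the protease that cuts cohesin at anaphase, was at 2.38, 1.39, 3.03 and 3.85 FPKM at 0h, at 5.75, 4.88, 6.27 and 4.98 FPKM at 22h and at 1.74, 1.83, 2.25 and 1.35 FPKM at 46h. The 0h and 46h libraries overlapped, and the log2 fold change was -0.35 (SE 0.20, adjusted p = 0.141). ANLN, anillin, a scaffold of the cytokinetic ring, was at 10.5, 8.58, 8.91 and 6.27 FPKM at 0h, at 17.9, 19.7, 11.8 and 16.8 FPKM at 22h and at 8.84, 5.99, 6.32 and 7.92 FPKM at 46h. Its 22h replicate 3 was close to the highest 0h library, and 0h and 46h overlapped with a log2 fold change of -0.20 (SE 0.20, adjusted p = 0.379). ESPL1 and ANLN were the 2 genes here on a list of 36 tested genes of the meiotic cell cycle and spindle, of which 11 were higher and 9 lower at 46h than at 0h. SEPTIN2, a filament protein of the cell cortex, was at 10.8, 6.37, 15.5 and 20.1 FPKM at 0h, at 26.1, 23.1, 38.2 and 24.4 FPKM at 22h and at 12.1, 13.5, 13.5 and 10.4 FPKM at 46h. It returned at 46h to the range of 0h, with a log2 fold change of 0.01 (SE 0.27, adjusted p = 0.971). The 95% interval was -0.57 to 0.60. SEPTIN2 passed as higher after quantile normalization (0.59, adjusted p = 0.0379) and was at -0.27 (adjusted p = 0.321) without 0h replicate 2. SEPTIN7, which co-assembles with SEPTIN2, was at 51.4 ± 5.05, 51.5 ± 2.002 and 19.4 ± 5.16 FPKM. RBL1, the pocket protein p107, had means of 3.17, 5.68 and 1.81 FPKM and a log2 fold change of -0.57 (SE 0.16, adjusted p = 0.00637), just short of the fold threshold.

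**Figure D4:**
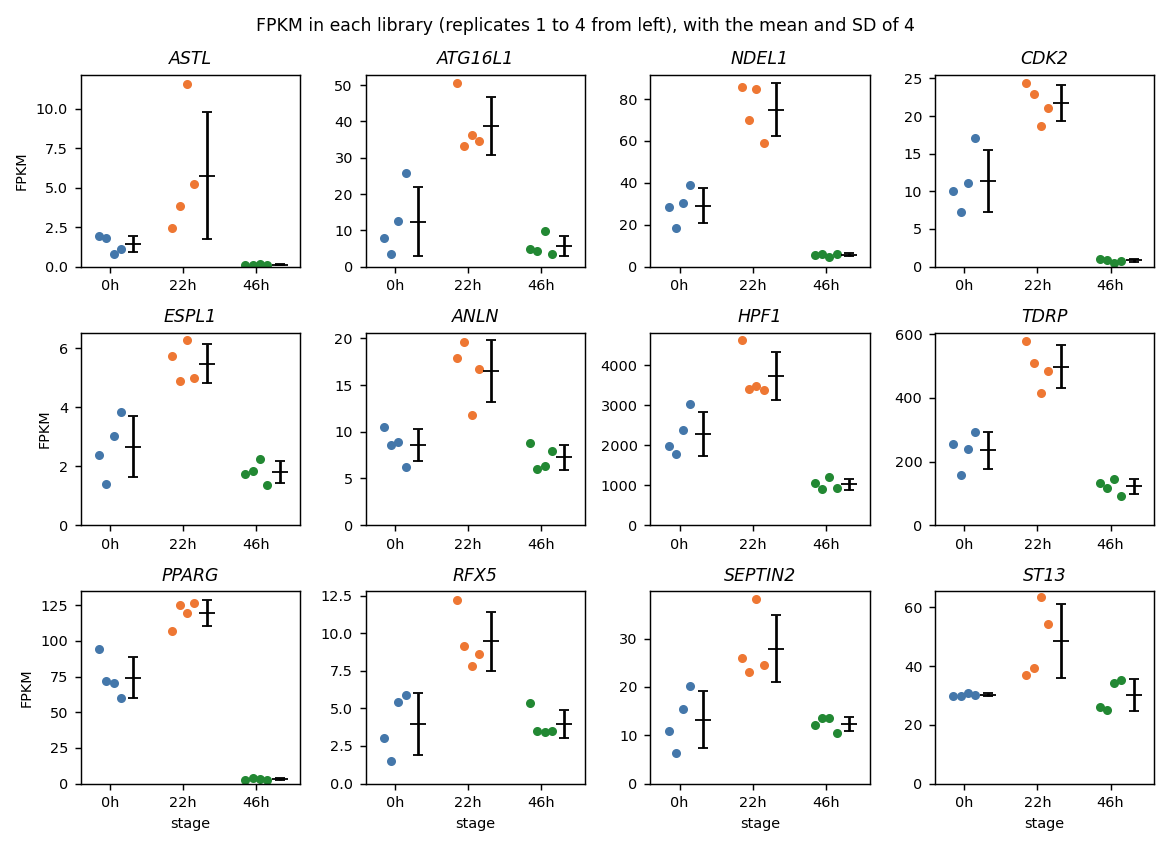
Points are the FPKM of each of 12 genes in every library, with replicates 1 to 4 from left to right within a stage; the bar beside them is the mean with its SD (n = 4) and each axis starts at 0. All 22h points lie above the others by the choice of genes, and at 46h CDK2 and PPARG sit near 0 whereas the 46h points of RFX5, SEPTIN2 and ST13 overlap those of 0h.

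Genes of membrane traffic and autophagy, a broadly drawn role, numbered 13, of which 6 fell at 46h against 0h. The genes tested as a whole were not sorted by role, so nothing is read from the size of a group. ATG16L1 (chr15:133651294-133693472, plus strand), which carries the ATG5 and ATG12 conjugate to the growing autophagosome, was at 7.84, 3.55, 12.5 and 25.7 FPKM at 0h, at 50.5, 33.3, 36.4 and 34.5 FPKM at 22h and at 4.83, 4.31, 9.7 and 3.54 FPKM at 46h. The 0h libraries were widely spread, with replicate 4 the highest, and overlapped those of 46h. The 22h mean was 3.12 times the 0h mean (4.85 times without 0h replicate 4), and limma gave a log2 fold change at 46h against 0h of -0.82 (SE 0.42, adjusted p = 0.105), which became -1.24 (adjusted p = 0.00759) without 0h replicate 2 and -1.08 (adjusted p = 0.0472) without 46h replicate 3. It was -0.39 (adjusted p = 0.336) without 0h replicate 4, -0.46 after median-of-ratios scaling and -0.21 after quantile normalization. Its partners were not among the 86 genes: ATG5 was at 144 ± 41.7, 145 ± 39.97 and 210.4 ± 17.7 FPKM and ATG12 at 11.47 ± 3.43, 21.8 ± 5.87 and 42.3 ± 3.57 FPKM in the order of the stages. WDR45B, a phosphoinositide-binding protein of early autophagosomes, was at 68.3, 53.2, 68.9 and 91.3 FPKM at 0h, at 97.4, 106, 179 and 134 FPKM at 22h and at 18.2, 16.9, 38.1 and 21.9 FPKM at 46h. The 46h libraries were all below the 0h libraries, with a log2 fold change of -1.57 (SE 0.26, adjusted p = 0.000122).

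RAB3IP (chr5:34002792-34053893, plus strand), an activator of the GTPase RAB8 in vesicle delivery, was at 248, 219, 225 and 263 FPKM at 0h, at 405, 343, 354 and 387 FPKM at 22h and at 27.1, 24.2, 31.5 and 40.3 FPKM at 46h. Each stage was apart, and limma gave a log2 fold change at 46h against 0h of -2.94 (SE 0.17, adjusted p = 2.35e-09). RAB9A, the GTPase of transport from late endosomes to the Golgi, was at 20.5, 20.3, 16.96 and 20.8 FPKM at 0h, at 36.7, 37.8, 39.9 and 45.9 FPKM at 22h and at 6.45, 6.22, 6.78 and 6.03 FPKM at 46h. The 46h libraries were again the lowest, with a log2 fold change of -1.48 (SE 0.14, adjusted p = 3.67e-07). BBS2, a subunit of the BBSome that moves cargo to cilia, was at 48.5, 42.6, 41.5 and 37.4 FPKM at 0h, at 73.1, 91.01, 99.98 and 93.4 FPKM at 22h and at 13.1, 7.8, 13.3 and 10.3 FPKM at 46h and had a log2 fold change of -1.86 (SE 0.18, adjusted p = 5.78e-07). LMAN2 and PPT1, a lectin of the early secretory pathway and a lysosomal thioesterase, passed narrowly at -0.60 and -0.59. LMAN2 fell short at -0.51 on TPM without mitochondrially encoded genes, at -0.20 after median-of-ratios scaling, at -0.13 after quantile normalization and without any 1 of 4 libraries. PPT1 fell short at -0.51, -0.20 and -0.04 under the same scalings and without any 1 of 4 libraries. PLEKHF2, an endosomal lipid-binding protein, was at 42.6, 39, 43.6 and 53.7 FPKM at 0h, at 136, 117, 75.8 and 96.2 FPKM at 22h and at 36.3, 28.2, 30.9 and 26.4 FPKM at 46h. Its 46h libraries were all below 0h, but the log2 fold change of -0.54 (SE 0.19, adjusted p = 0.0238) was under the fold threshold, which it passed without 0h replicate 2 (-0.60), without 46h replicate 1 (-0.62) and on TPM (-0.64). The value turned to 0.02 (adjusted p = 0.925) after quantile normalization. COG3, a tethering subunit of the Golgi, was at 124, 70.8, 136 and 139.7 FPKM at 0h, at 282, 199, 239 and 228 FPKM at 22h and at 94.3, 75.5, 113 and 70.7 FPKM at 46h. Its 0h and 46h ranges overlapped, with a log2 fold change of -0.39 (SE 0.23, adjusted p = 0.155) that became -0.61 (adjusted p = 0.0138) without 0h replicate 2 and 0.01 after median-of-ratios scaling. The sorting nexins SNX9 and SNX12, the syntaxin STX6 and RAB6A, all of endosomal or Golgi transport, had 22h means 1.55 to 1.93 times those of 0h and did not pass at 46h against 0h.

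Genes of transcription and chromatin numbered 9, of which 5 fell at 46h against 0h. PPARG (chr13:68301566-68433951, plus strand), the nuclear receptor that governs fat storage genes, was at 94.3, 71.8, 70.7 and 60.02 FPKM at 0h, at 107, 125, 119.7 and 126 FPKM at 22h and at 2.82, 4.12, 3.37 and 2.78 FPKM at 46h. Every 46h library was far below every 0h library, with a log2 fold change of -4.13 (SE 0.17, adjusted p = 1.13e-10). This was the largest of the 86 genes on log2 of FPKM plus 1, a scale that understates changes of low genes. POLR2H (chr13:122250087-122256201, plus strand), a subunit shared by the nuclear RNA polymerases, was at 15.5, 19.6, 17.4 and 12.8 FPKM at 0h, at 23.1, 28.9, 25.3 and 22.6 FPKM at 22h and at 0.59, 0.79, 0.39 and 0.75 FPKM at 46h. It was under 1 FPKM in every 46h library, with a log2 fold change of -3.40 (SE 0.16, adjusted p = 4.59e-10). CREBL2, a bZIP protein, was at 4.56, 3.87, 4.41 and 6.1 FPKM at 0h, at 11.07, 8.69, 10.2 and 10.4 FPKM at 22h and at 0.47, 0.28, 0.33 and 0.38 FPKM at 46h. It too was under 1 FPKM in every 46h library, with a log2 fold change of -2.06 (SE 0.15, adjusted p = 2.92e-08). SPIN1, a reader of histone methylation known from the oocyte spindle, was at 44.8, 36.2, 49.96 and 50.3 FPKM at 0h, at 102, 97.2, 81.6 and 86.1 FPKM at 22h and at 13.5, 8.33, 9.13 and 9 FPKM at 46h. All 3 stages were apart, with a log2 fold change of -2.09 (SE 0.18, adjusted p = 1.29e-07). SP3, a factor that binds GC boxes, had means of 10.2, 18.3 and 4.91 FPKM and a log2 fold change of -0.95 (SE 0.19, adjusted p = 0.000627). It no longer passed after quantile normalization (-0.30).

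The other 4 of these genes did not pass at 46h against 0h. RFX5, a factor of class II histocompatibility promoters, was at 3.05, 1.51, 5.43 and 5.87 FPKM at 0h, at 12.2, 9.17, 7.8 and 8.63 FPKM at 22h and at 5.33, 3.47, 3.42 and 3.52 FPKM at 46h. The 0h and 46h libraries overlapped and the log2 fold change was 0.08 (SE 0.28, adjusted p = 0.81), with a 95% interval of -0.51 to 0.68. RFX5 passed as higher after quantile normalization (0.77, adjusted p = 0.00874) and was at -0.21 (adjusted p = 0.436) without 0h replicate 2. LEF1, a partner of beta-catenin in Wnt signalling, was at 7.49, 8.39, 8.28 and 9.02 FPKM at 0h, at 13.03, 15.4, 18.3 and 17.4 FPKM at 22h and at 9.52, 9.22, 9.42 and 8.86 FPKM at 46h. Its 46h range overlapped that of 0h at its upper end, with a log2 fold change of 0.14 (SE 0.14, adjusted p = 0.397). The interval of -0.16 to 0.45 lay within a 1.5-fold change. After quantile normalization LEF1 passed as higher, at 0.78 (adjusted p = 0.000203). CECR2, a subunit of chromatin remodelling complexes, was at 10.5, 5.47, 11.6 and 11.8 FPKM at 0h, at 23.7, 20.5, 20.1 and 19.8 FPKM at 22h and at 8.11, 7.27, 13.8 and 7.85 FPKM at 46h. The 46h replicate 3 was the highest of its stage and above every 0h library, and the log2 fold change was -0.07 (SE 0.24, adjusted p = 0.806). HMGXB4 had means of 4.303, 7.77 and 2.69 FPKM and a log2 fold change of -0.51 (SE 0.15, adjusted p = 0.00928), under the fold threshold.

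RNA binding, processing and translation numbered 9 genes, of which 4 fell at 46h against 0h. ALKBH5 (chr12:60507662-60530239, minus strand), which removes N6-methyladenosine from mRNA, was at 19.3, 12.2, 26.1 and 32.9 FPKM at 0h, at 42.5, 33.2, 45.5 and 36.9 FPKM at 22h and at 3.27, 1.69, 3.21 and 2.09 FPKM at 46h. The 0h libraries were highest in replicate 4, close to 22h, the 46h libraries were the lowest, and the log2 fold change was -2.67 (SE 0.26, adjusted p = 6.1e-07). FTO, the other demethylase of this mark, was at 0.102 ± 0.0685, 0.205 ± 0.094 and 0.23 ± 0.0804 FPKM. EIF1B (chr13:24575183-24577486, plus strand), a homologue of the start codon factor EIF1, was at 295, 278, 269.9 and 254 FPKM at 0h, at 413, 559, 417 and 379 FPKM at 22h and at 55.7, 59.6, 50.4 and 45.5 FPKM at 46h. Each stage was apart, with a log2 fold change of -2.36 (SE 0.16, adjusted p = 1.19e-08). EIF1 itself was at 492 ± 44.1, 867 ± 42.3 and 1319 ± 419.97 FPKM in the order of the stages, and since the 2 genes are close paralogues, how the authors' counting shared reads between them is uncertain. HNRNPH3, a splicing factor, was at 44.5, 48.02, 46.5 and 42.7 FPKM at 0h, at 67.3, 79.02, 86.1 and 68.9 FPKM at 22h and at 8.7, 11.4, 8.45 and 9.65 FPKM at 46h, with 46h the lowest and a log2 fold change of -2.15 (SE 0.15, adjusted p = 1.45e-08). LSM14A, a protein of storage granules that represses translation, was at 4.31, 2.51, 4.53 and 5.61 FPKM at 0h, at 8.24, 6.03, 6.2 and 7.82 FPKM at 22h and at 1.67, 0.95, 1.2 and 0.94 FPKM at 46h. Its 46h libraries were all below 0h, with a log2 fold change of -1.24 (SE 0.20, adjusted p = 8.54e-05), -0.58 and short of the fold threshold after quantile normalization, and it was the only one of the 86 genes on a list of 30 tested genes of mRNA storage and decay, of which 4 were higher and 10 lower at 46h than at 0h.

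The other 5 did not pass at 46h against 0h. ZFP36L1, which directs decay of mRNAs with AU-rich elements, was at 8.78, 6.16, 9.35 and 11.51 FPKM at 0h, at 13.9, 14.3, 15.5 and 12.96 FPKM at 22h and at 8.57, 5.09, 6.08 and 5.15 FPKM at 46h, and the 0h and 46h ranges overlapped with a log2 fold change of -0.46 (SE 0.19, adjusted p = 0.0519). CELF1, a regulator of splicing and deadenylation, had means of 7.94, 12.4 and 5.61 FPKM and a log2 fold change of -0.45 (SE 0.18, adjusted p = 0.0408), under the fold threshold. TENT4A, a non-canonical poly(A) polymerase, was at 5.18, 2.92, 7.56 and 11.2 FPKM at 0h, at 11.8, 12.96, 16.96 and 12.04 FPKM at 22h and at 8.86, 7.22, 10.3 and 6.07 FPKM at 46h. The 0h libraries were the more widely spread and enclosed those of 46h, with a log2 fold change of 0.34 (SE 0.29, adjusted p = 0.315). TENT4A passed as higher after median-of-ratios scaling (0.70, adjusted p = 0.0149) and quantile normalization (0.995, adjusted p = 0.00152). It also passed without 0h replicate 4 (0.60, adjusted p = 0.0478). The RNA helicase DDX59 and the initiation factor EIF4H had means of 13.4, 26.1 and 11.9 FPKM and of 63.2, 98.9 and 53.7 FPKM.

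Metabolic enzymes numbered 8, of which 4 fell at 46h against 0h. SDHD (chr9:39790654-39803602, plus strand), a membrane anchor of succinate dehydrogenase, was at 48.7, 59.9, 55.8 and 41.8 FPKM at 0h, at 73.7, 98.7, 69.8 and 100.4 FPKM at 22h and at 5.75, 5.74, 4.56 and 5.23 FPKM at 46h. The 46h libraries were all far below 0h, with a log2 fold change of -3.05 (SE 0.17, adjusted p = 2.26e-09). None of the other subunits was among the 86 genes: SDHA, the flavoprotein, was at 2.79 ± 1.198, 1.25 ± 0.478 and 0.985 ± 0.255 FPKM, SDHB, the iron-sulfur subunit, at 49.2 ± 12.7, 54.1 ± 13.7 and 70.2 ± 12.8 FPKM, and SDHC, the second anchor, at 4.28 ± 0.956, 5.68 ± 2.52 and 5.73 ± 1.897 FPKM. ATIC (chr15:117617584-117649063, plus strand), which carries out the last steps of purine synthesis with a one-carbon donor, was at 125, 131, 125 and 114 FPKM at 0h, at 179, 222, 198 and 225 FPKM at 22h and at 70.2, 55.9, 70.7 and 65.1 FPKM at 46h. Each stage was apart, with a log2 fold change of -0.92 (SE 0.14, adjusted p = 6.66e-05), and the value stayed below 0 but fell short of the fold threshold after median-of-ratios scaling (-0.52) and quantile normalization (-0.50). ATIC was the only one of the 86 genes on a list of 17 tested genes of one-carbon metabolism and DNA methylation, of which 2 were higher and 6 lower at 46h than at 0h. PIGX, of glycosylphosphatidylinositol anchor synthesis, was at 202, 233, 179 and 169 FPKM at 0h, at 267, 335, 278 and 298 FPKM at 22h and at 96.9, 67.7, 84.96 and 108 FPKM at 46h. It had the smallest ratio to 0h of the 86 genes and a log2 fold change at 46h against 0h of -1.13 (SE 0.17, adjusted p = 5.38e-05). CASD1, which acetylates sialic acids, had means of 45.1, 72.97 and 10.1 FPKM and a log2 fold change of -2.06 (SE 0.26, adjusted p = 7.47e-06).

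The other 4 enzymes did not pass. DLST, a subunit of the alpha-ketoglutarate dehydrogenase complex, was at 1.91, 1.78, 2.33 and 3.51 FPKM at 0h, at 4.98, 4.48, 7.1 and 5.99 FPKM at 22h and at 2.06, 2.53, 3.82 and 3.49 FPKM at 46h. Its 0h and 46h ranges overlapped, with a log2 fold change of 0.24 (SE 0.20, adjusted p = 0.329). DLST passed as higher after quantile normalization, at 0.91 (adjusted p = 0.000177). NT5C3B, a cytosolic nucleotidase, was at 5.41, 7.63, 8.18 and 9.5 FPKM at 0h, at 20.4, 14.4, 17.3 and 12.1 FPKM at 22h and at 9.43, 6.99, 7.07 and 6.76 FPKM at 46h. Its 46h libraries lay inside the 0h range, with a log2 fold change of -0.01 (SE 0.20, adjusted p = 0.976) and an interval of -0.43 to 0.41. The log2 fold change became 0.66 (adjusted p = 0.00476) after quantile normalization. The lactosylceramide synthase B4GALT6 and the dehydrogenase DHRS7 had means of 3.59, 6.003 and 2.97 FPKM and of 12.1, 18.6 and 9.14 FPKM.

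Genes of DNA repair and replication numbered 3, of which 2 fell at 46h against 0h. HPF1, which joins PARP1 and PARP2 to direct ADP-ribose to serines at DNA breaks, was the most abundant of the 86 genes and ranked 41 among all genes at 22h. HPF1 was at 1975, 1783, 2367 and 3023 FPKM at 0h, at 4619, 3409.96, 3478 and 3372 FPKM at 22h and at 1056, 902, 1209 and 933 FPKM at 46h. Replicate 1 of 22h was the highest, replicate 4 of 0h came closest to 22h, and all 46h libraries were below 0h with a log2 fold change of -1.14 (SE 0.19, adjusted p = 0.000112). Its partners were low, with PARP1 at 2.19 ± 0.149, 3.15 ± 0.401 and 0.383 ± 0.155 FPKM and PARP2 at 2.08 ± 0.427, 2.11 ± 0.259 and 3.905 ± 0.464 FPKM. TIPIN (chr1:164349196-164369297, minus strand), of the replication fork protection complex, was at 124, 144, 126 and 78.7 FPKM at 0h, at 162, 232, 191 and 199 FPKM at 22h and at 43.8, 38.99, 32.04 and 42.7 FPKM at 46h. Its 0h replicate 4 was the lowest of its stage and still above every 46h library, with a log2 fold change of -1.54 (SE 0.20, adjusted p = 1.02e-05). TIMELESS, with which TIPIN pairs, was at 1.67 ± 0.494, 2.58 ± 0.194 and 2.01 ± 0.357 FPKM. TDP1, which frees DNA ends from trapped topoisomerase, had means of 12.1, 21.4 and 9.95 FPKM and did not pass, with a log2 fold change of -0.29 (SE 0.20, adjusted p = 0.228).

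Signalling genes numbered 7, of which 5 fell at 46h against 0h. KCNN2 (chr2:118439328-118882299, plus strand), a calcium-activated potassium channel, was at 7.91, 12.1, 8.67 and 9.88 FPKM at 0h, at 17.8, 16.6, 12.3 and 19.2 FPKM at 22h and at 0.41, 0.24, 0.43 and 0.49 FPKM at 46h. It was under 1 FPKM in every 46h library, with a log2 fold change of -2.92 (SE 0.17, adjusted p = 3.11e-09). DUSP5 (chr14:120906340-120919398, plus strand), a nuclear phosphatase that switches off ERK kinases, was at 8.64, 5.55, 10.3 and 7.73 FPKM at 0h, at 15.5, 13.3, 13.2 and 13.6 FPKM at 22h and at 0.3, 0.29, 0.3 and 0.41 FPKM at 46h. It too was under 1 FPKM in every 46h library, with a log2 fold change of -2.75 (SE 0.17, adjusted p = 4.35e-09). RAP2A, a small GTPase related to RAS, was at 7.47, 6.73, 8.27 and 6.47 FPKM at 0h, at 11.6, 14.6, 9.86 and 12.97 FPKM at 22h and at 2.72, 1.14, 1.73 and 1.48 FPKM at 46h, with 46h the lowest and a log2 fold change of -1.60 (SE 0.18, adjusted p = 3.41e-06). Its relative RAP2C was at 8.91 ± 2.77, 19.4 ± 2.84 and 26.5 ± 4.52 FPKM. The kinase STK26 and the adaptor BCL10, which links receptors to NF-kappa-B, fell by 1.29 and 0.78 on the log2 scale. BCL10 no longer passed after median-of-ratios scaling (-0.39) or quantile normalization (-0.24). RGS16, which shortens G protein signals, was at 25.6, 20.8, 35.3 and 46.1 FPKM at 0h, at 50.96, 52.3, 80.5 and 68.2 FPKM at 22h and at 39.5, 32.4, 50.6 and 28.3 FPKM at 46h. Its highest 0h and 46h libraries came close to the lowest at 22h, and the log2 fold change was 0.26 (SE 0.25, adjusted p = 0.386), which became 0.65 (adjusted p = 0.0136) after median-of-ratios scaling and 0.77 (adjusted p = 0.00949) after quantile normalization. The phosphatase PTPN21 had means of 5.67, 10.1 and 4.46 FPKM.

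In the ubiquitin pathway, 2 of 4 genes fell at 46h against 0h. UBE2A (chrX:97925136-98007551, plus strand), a ubiquitin-conjugating enzyme of the RAD6 type, was at 104, 95.6, 81.04 and 71.2 FPKM at 0h, at 122, 145, 146 and 175 FPKM at 22h and at 13.6, 14.1, 23.4 and 20.4 FPKM at 46h. The 46h libraries were all below 0h, with a log2 fold change of -2.25 (SE 0.20, adjusted p = 2.3e-07). Its close paralogue UBE2B was at 5.88 ± 0.797, 3.09 ± 0.713 and 0.67 ± 0.3404 FPKM, and reads that fit both cannot be placed with certainty. The deubiquitinase USP38 had a log2 fold change of -1.03 (SE 0.20, adjusted p = 0.000479). It no longer passed after quantile normalization (-0.40). UBE2H and DET1, a conjugating enzyme and an adaptor of a cullin ligase, did not pass at 0.09 and -0.34. Of 3 chaperone genes 1 fell. HSPA14, a ribosome-associated HSP70 relative, was at 443, 454, 333 and 272 FPKM at 0h, at 486, 589, 535 and 674 FPKM at 22h and at 136, 179.9, 161 and 204 FPKM at 46h, with 46h the lowest and a log2 fold change of -1.12 (SE 0.20, adjusted p = 0.000188). HSPD1, the mitochondrial chaperonin, was at 11.7, 11.54, 13.9 and 15.5 FPKM at 0h, at 24.2, 23.5, 26.5 and 21.4 FPKM at 22h and at 12.2, 16.96, 13.6 and 13.5 FPKM at 46h. The 0h and 46h libraries overlapped, with a log2 fold change of 0.09 (SE 0.15, adjusted p = 0.646), and its co-chaperonin HSPE1 was at 9658 ± 4795, 6899.9 ± 2377 and 2106 ± 215 FPKM. ST13, a co-chaperone of HSP70, was at 29.9, 29.7, 30.8 and 30.2 FPKM at 0h, at 37.1, 39.4, 63.4 and 54.2 FPKM at 22h and at 26.1, 25.04, 34.2 and 35.3 FPKM at 46h. It had almost equal means at 0h and 46h, with a log2 fold change of -0.02 (SE 0.19, adjusted p = 0.948) and an interval of -0.42 to 0.39. At the nuclear envelope, NUP153 of the nuclear pore basket fell, with a log2 fold change of -0.998 (SE 0.23, adjusted p = 0.00178). It no longer passed after quantile normalization (-0.37). TMPO, which binds lamins, had means of 4.73, 9.52 and 5.28 FPKM and did not pass.

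Outside these groups, TMBIM6 (chr5:15674028-15692944, plus strand), a membrane protein of the endoplasmic reticulum that restrains cell death, was at 144, 124, 139 and 129 FPKM at 0h, at 235, 236, 195 and 194 FPKM at 22h and at 6.43, 9.86, 5.66 and 9.19 FPKM at 46h. On log2 of FPKM plus 1 its fall at 46h against 0h was second to that of PPARG. The log2 fold change was -3.97 (SE 0.18, adjusted p = 2.41e-10). TDRP, a nuclear protein known from the testis, was at 254, 156, 238 and 294 FPKM at 0h, at 580.04, 509, 417 and 486 FPKM at 22h and at 134, 118, 146 and 91.9 FPKM at 46h. The 22h libraries were above the others and 46h was below 0h, with a log2 fold change of -0.92 (SE 0.21, adjusted p = 0.00151) that fell short of the fold threshold after median-of-ratios scaling (-0.52). C16orf87, of unknown function, was at 86.6, 94.4, 96.7 and 91.2 FPKM at 0h, at 119.8, 147, 152 and 145 FPKM at 22h and at 13.1, 14.3, 12.8 and 12.6 FPKM at 46h. Each stage was narrow and apart, with a log2 fold change of -2.71 (SE 0.14, adjusted p = 7.04e-10). ZSWIM3, a zinc finger protein, was at 85.8, 53.1, 98.4 and 142 FPKM at 0h, at 145, 154, 198 and 159 FPKM at 22h and at 90.7, 84.3, 107 and 65.4 FPKM at 46h, and its 0h replicate 4 came close to the lowest 22h library. The log2 fold change was -0.06 (SE 0.25, adjusted p = 0.84). PEX26, a peroxisomal import factor, was at 2.44, 1.84, 2.72 and 5.32 FPKM at 0h, at 8.04, 7.21, 6.46 and 6.24 FPKM at 22h and at 4.73, 5.03, 4.82 and 3.61 FPKM at 46h. Its 46h libraries were above 3 of the 4 at 0h, and the log2 fold change was 0.50 (SE 0.21, adjusted p = 0.0543); without 0h replicate 4 it was 0.74 (adjusted p = 0.00125) and without 46h replicate 4 it was 0.59 (adjusted p = 0.0450). PEX26 also passed as higher on TPM without mitochondrially encoded genes (0.62), after median-of-ratios scaling (0.83), after quantile normalization (1.17) and with a pseudocount of 0.1 (0.65). MRFAP1 fell too, with means of 80.01, 127 and 31.7 FPKM and a log2 fold change of -1.29 (SE 0.19, adjusted p = 3.76e-05). CRLF3, MFSD6, PLEKHB2 and ZNF330 did not pass, at -0.52, -0.32, -0.17 and 0.16. The largest positive change, of ENSSSCG00000006344, was 0.51 (SE 0.25, adjusted p = 0.0909), and this gene is named after its value was seen. It passed as higher without 0h replicate 4 (0.74) and without 46h replicate 4 (0.65). The same held on TPM without mitochondrially encoded genes (0.60), after median-of-ratios scaling (0.90) and after quantile normalization (0.98). Of the 8 genes without a symbol, 3 fell at 46h against 0h.

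**Figure D5:**
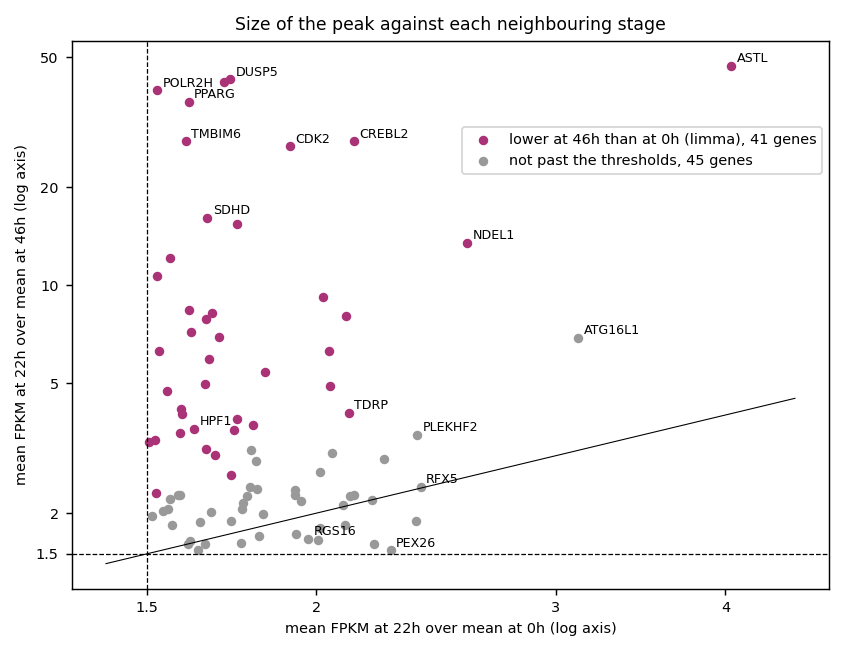
Each point is 1 of the 86 genes, with the ratio of the 22h mean to the 0h mean across and to the 46h mean upwards, both on log axes; dashed lines are the limits of 1.5 and the solid line marks equal ratios. Most points lie above the solid line, and the 41 genes lower at 46h than at 0h lie mostly far above it, with ASTL and ATG16L1 alone beyond a ratio of 3 to 0h (2.68 for ASTL without 22h replicate 3).

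At the limits of the rule, the genes just inside the ratio to 0h were PIGX (1.51), MFSD6 (1.51) and HSPA14 (1.52), and just outside were DRAP1 (1.497), MSH4 (1.493) and PDCD2L (1.492). Just inside the ratio to 46h were PEX26 (1.54), ITGB1 (1.54) and UBE2H (1.60), and just outside were UHRF2 (1.497), THUMPD1 (1.48) and PABPC4 (1.46). By level, ITGB1 (5.26 FPKM at 22h), ESPL1 (5.47) and DLST (5.64) were just inside and PIAS3 (4.96), SEC24D (4.88) and ERN1 (4.76) just outside. By the ratio of the lowest 22h library to the highest other library, RGS16 (1.007), ALKBH5 (1.008) and SNX12 (1.009) were just inside and MTMR3 (0.998), RDH10 (0.995) and TECTA (0.990) just outside. A single limit alone kept out 38 genes by the ratio to 0h, 20 by the ratio to 46h, 36 by level and 93 by the separation of libraries. Other scalings of the libraries also move the membership: 49 of the 86 genes met the rule under all 4 scalings tried, 59 with any 1 library left out, and 37 under both.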

How the data were processed

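Polyadenylated RNA of denuded porcine oocytes was sequenced in 12 SMART-Seq2 libraries. The deposited FPKM values were made by the authors with trimming, STAR alignment to the swine genome (Sscrofa11) and RSEM, per the labels and the study's methods. Counts made with HTSeq were not analysed here. Values have 2 decimals, and whole reads were not recovered from them. A comparison of the lowest values, which rests on few genes, put depth at 0.908 to 1.36 times that of 0h replicate 1.

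Identifiers were named from the reference annotation (15029 of 31908). The fit took genes averaging 1 FPKM or more, as log2(FPKM + 1), with limma 3.58.1 in R 4.3.3, with eBayes with trend, stage as the only factor and all 12 libraries. P-values were two-sided and adjusted after Benjamini-Hochberg across 7013 genes. The pseudocount of 1 understates changes of low genes. The fit was tested on simulated data, and no outcome of that test is given or used here. RefSeq models of Sscrofa11.1 were used by symbol, and sequences were read with pyfaidx 0.9.0.4. The coordinates are those of Sscrofa11.1. Tables and figures used Python 3.11.15, numpy 2.4.6, pandas 2.3.3 and matplotlib 3.10.9.

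The genes named are, first, the 15 most abundant at 22h. Next are the 15 with a symbol and the largest ratio to the higher of the other stages. ENSSSCG00000043533 (2.24) and ENSSSCG00000047947 (2.19) had ratios in that range but no symbol. Then come those on the gene lists and the 6 largest falls at 46h against 0h in the fit. Rises past the thresholds were to be named too, but there were none. Last are those at the limits of the rule, and members and relatives by role, chosen after their values were seen. The 86 genes and all lists were chosen with earlier results of these data known. Alternatives were 4 scalings, a pseudocount of 0.1, no filter, a filter of 5 FPKM, only the groups compared, eBayes without trend, a replicate block, each library left out, other limits of the rule, and other 3′ windows, other transcripts and peak ratios with 1 library left out, these last 3 added after seeing the data.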

Additional observations from a re-analysis of the deposited data

Results flagged for a closer look

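In 7 of 129 groups of 4 libraries examined over the named genes (5.43%), 1 library lay apart from the other 3 by Dixon's criterion, and chance alone gives about 1 in 20. HPF1 was at 4619 FPKM in 22h replicate 1, against 3372 to 3478 in the other 22h libraries. At 46h, replicate 1 was the high one for RFX5 (5.33 FPKM against 3.42 to 3.52), NT5C3B (9.43 against 6.76 to 7.07) and SPIN1 (13.5 against 8.33 to 9.13). Replicate 3 of 46h was the high one for CECR2 (13.8 FPKM against 7.27 to 8.11) and ASTL (0.18 against 0.10 to 0.11). RAB9A was low in 0h replicate 3, at 17.0 FPKM against 20.3 to 20.8.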

How the results depend on the processing

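The rule chose 86 genes as deposited, 131 on TPM without mitochondrially encoded genes, 18 with a ratio of at least 2 and 179 without the separation of libraries. It chose 78 to 184 with 1 library left out, the highest being 184 without 0h replicate 4 and 130 without 22h replicate 1. At 46h against 0h the number of lower genes was 41, and 31 to 45 under every scaling, filter and pseudocount tried (40 to 47 with 1 library left out). The number of higher genes was 0, and became 2 on TPM without mitochondrially encoded genes, 4 after median-of-ratios scaling, 17 after quantile normalization and 1 with a pseudocount of 0.1, with 0 to 3 when 1 library was left out (3 without 0h replicate 4 and 2 without 46h replicate 4). The scalings move the median change over all genes tested from -0.25 to -0.34 (TPM), 0.06 (median-of-ratios) and 0.34 (quantile), so whether any gene is higher at 46h than at 0h depends on the scaling. Of the 41 lower genes, 30 kept the call under every alternative fit that tested them and 11 lost it under a scaling: 2 on TPM without mitochondrially encoded genes (LMAN2 and PPT1), 6 after median-of-ratios scaling (these with ATIC, BCL10, TDRP and ENSSSCG00000038171) and 10 after quantile normalization (ATIC, BCL10, LMAN2, LSM14A, NUP153, PPT1, SP3, USP38, ENSSSCG00000038171 and ENSSSCG00000039473). LMAN2 and PPT1 also lost it with 1 library left out (LMAN2 without 0h replicate 4 or 46h replicate 1, 2 or 4, PPT1 without 0h replicate 1 or 2 or 46h replicate 1 or 3). A lower call was gained in at least 1 fit by 7 genes (ATG16L1, COG3, CRLF3, HMGXB4, PLEKHF2, RBL1 and ZFP36L1). Of 940 values of the 43 genes named by the rule, 916 stayed on their side of the thresholds. Of the rest, 19 passed newly with the same sign and 1 with the opposite sign (NT5C3B after quantile normalization). The other 4 no longer passed: ATIC (-0.52 and -0.50), LSM14A (-0.58 after quantile normalization) and TDRP (-0.52). The sign differed in 40 of the 940 values, over 13 genes, none of them past the thresholds as deposited. Of the 40, 8 were after quantile normalization, 7 after median-of-ratios scaling, 3 on each TPM and 19 with 1 library left out. After quantile normalization ANLN went from -0.20 to 0.46, CECR2 from -0.07 to 0.57 and ESPL1 from -0.35 to 0.32. The 17 genes that passed as higher after quantile normalization were DLST (0.91), HSPD1 (0.68), ITGB1 (0.75), LEF1 (0.78), RFX5 (0.77), SEPTIN2 (0.59), TENT4A (0.995), TMPO (0.77), UBE2H (0.62), ZNF330 (0.85), NT5C3B, RGS16, PEX26 and 4 without a symbol, of which ENSSSCG00000006344 also passed on TPM without mitochondrially encoded genes and after median-of-ratios scaling. NT5C3B turned from -0.01 to 0.66 (adjusted p = 0.00476) after quantile normalization. The cause was not tested. Replicate numbers showed no clear pairing of the libraries (correlations of same-numbered libraries -0.47 to 0.38, 2 of 12 libraries closest to their own number). This does not exclude pairing, since the labels do not say how replicates were made. With the replicate block 41 genes were lower and 0 higher. Read depth is unknown, so genes near 0 FPKM at 46h, such as ASTL, carry no counting interval.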
